A study of Mus musculus with 18 samples.

Results

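Glutathione transferases and the antioxidant genes controlled by NRF2 were followed as a set of 36 genes in mouse liver. They comprise 16 cytosolic and 2 microsomal glutathione transferases, 5 genes of glutathione synthesis and recycling, 5 stress-induced or detoxifying enzymes, 6 thioredoxin and peroxide enzymes, and the 2 regulators Nfe2l2 and Keap1. Gstk1, an enzyme of mitochondria and peroxisomes, is counted here with the cytosolic transferases. Each gene was read from the probe set that the array's annotation gives to that gene alone, and where several existed from the one with the highest mean over the arrays. This gave 34 of the 36 genes, out of 18193 genes with such a probe set, and all 34 passed the filter on low signal. The other 2 genes, Prdx1 and G6pdx, had no probe set of their own in the annotation and were not analysed here.

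The study measured liver RNA of male mice on 18 arrays, 3 in each of 6 groups. The genotypes were wild type (Hmgn1+/+) and knockout (Hmgn1-/-) for Hmgn1, a nucleosome-binding protein, and both descended from crosses of heterozygotes whose homozygous offspring were then bred as separate lines. In each genotype 1 group was not injected and is labelled 4 weeks, and 2 groups were injected at 4 weeks of age and are labelled 12 weeks, without saying from when the weeks were counted. The injection was 10 µg per g body weight of N-nitrosodiethylamine (DEN), a liver carcinogen that cytochrome P450 enzymes activate, or saline. Nothing in the labels ties each array to an animal of its own, so p-values measure only the spread between these samples. Since whole liver was used, fewer cells of a type and less RNA per cell cannot be told apart.

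Glutathione transferases join the tripeptide glutathione to reactive compounds, which are then exported, and several of them are among the most abundant enzymes of hepatocytes. The transcription factor NRF2, encoded by Nfe2l2, is held by KEAP1 and degraded in unstressed cells. When oxidants or electrophiles modify KEAP1, NRF2 accumulates, binds antioxidant response elements with a small MAF partner, and raises genes of glutathione synthesis, quinone reduction and thioredoxin.

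Hmgn1 itself (chromosome 16, 96121588 to 96127725, GRCm38.p6) had no called difference between the labelled genotypes, with 3 of its 4 probe sets tested. Its brightest probe set read 6083, 7948 and 6724 in wild type and 6864, 6667 and 6503 in labelled knockout at 4 weeks, a log2 difference of -0.04 (SE 0.10, adjusted p = 0.898). With saline the difference was -0.04 and with DEN 0.01. The other tested probe sets each had 1 comparison in which labelled knockout lay below wild type without overlap. At 4 weeks the second brightest read 2982, 3383 and 3035 in wild type and 2900.2, 2957 and 2833 in labelled knockout (difference -0.11, adjusted p = 0.577). With saline the other tested one read 1906, 1808 and 1992 in wild type and 1681, 1787 and 1654 in labelled knockout (difference -0.15, adjusted p = 0.986). Where in the gene these probes lie relative to the deletion was not analysed here, so the genotype is given as labelled throughout. In scale the 6 saline arrays differed from the remaining 12. Their highest signals were 16719.6 to 21752.4, against 46966.8 to 60173.1 elsewhere. The summed signal of 8 hepatocyte markers, including albumin, was 92623 to 119142 on saline arrays and 207890 to 241715 elsewhere, and these markers of the labelled tissue were bright on every array. Differences that involve saline arrays are given with and without quantile normalization, which gives every array the same distribution of values.

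The antioxidant response element was looked for as the motif TGACNNNGC on both strands in the promoter windows of RefSeq (GRCm38.p6), which run from 250 bases before to 50 after a gene's start. It was present in 4071 of 32851 windows (12.4%) and in 9 of the 43 windows of these genes (20.9%). By gene these were 9 of the 31 that have a window (29.0%). The share by gene was not counted over all genes, so 29.0% is not to be set against 12.4%. The matches of the 7 measured genes follow, since this is the element NRF2 binds. Capitals mark the motif, each sequence is written 5′ to 3′ on the strand that carries it, and a match describes letters, not a bound site.
Gsta3 (chr1:21240453-21240483): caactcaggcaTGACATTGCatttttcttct
Nfe2l2 (chr2:75704884-75704913): tcagcccaccTGACTCCGCcatgccccgga
Srxn1 (chr2:152105541-152105571): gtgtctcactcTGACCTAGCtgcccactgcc
Gstm5 (chr3:107895801-107895831): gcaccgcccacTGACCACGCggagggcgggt
Gclm (chr3:122245412-122245442): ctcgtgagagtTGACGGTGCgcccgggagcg
Mgst1 (chr6:138140460-138140490): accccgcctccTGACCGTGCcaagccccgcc
Txnrd1 (chr10:82859103-82859133): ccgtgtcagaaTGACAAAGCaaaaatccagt
Since only these windows were searched, every match had to lie within 250 bases of an annotated start. The matches ran from 28 bases after the start in Srxn1 to 240 bases before it in Nfe2l2. Elements outside the windows were not looked for. Txnrd1 and Mgst1 have windows at more than 1 start, and a match in only 1 window each.

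In livers that had not been injected, at 4 weeks, 2 of the 34 genes fell in labelled knockout and none rose. A gene is called here where limma's moderated test gave an adjusted p under 0.05 over all 27022 tested probe sets. Of all those probe sets 2.26% were called in this comparison, 1.27% up and 0.992% down. Mgst3, a microsomal glutathione transferase of the membrane-bound MAPEG family (chromosome 1, 167371966 to 167393841), read 610.2, 625 and 642 in wild type and 381, 407 and 378 in labelled knockout. All 3 labelled knockout arrays were below all wild-type arrays, and the signal was 1.59-fold lower (log2 difference -0.67, SE 0.11, adjusted p = 0.00151). Gstt3, a theta-class cytosolic transferase (chromosome 10, 75774117 to 75781422), read 856, 655 and 756 in wild type and 472, 553 and 484 in labelled knockout. These groups did not overlap either, and the signal was 1.48-fold lower (log2 difference -0.57, SE 0.11, adjusted p = 0.00518). Both calls held with each of the 6 arrays left out in turn. A further probe set annotated to Mgst3 averaged only 18.6 over the 18 arrays and gave 0.44 (adjusted p = 0.658).

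The other cytosolic transferases lay mostly on the same side without being called. Of the 16, 15 had a negative difference with the values as deposited and with quantile values, and 16 with array medians centred, and their median was -0.18. Over all tested probe sets 46.3% of the differences were negative and the median was 0.02. Gsta3, an alpha-class enzyme, read 11784, 8249 and 11845 in wild type and 7351, 8867 and 8214 in labelled knockout. Wild-type replicate 2 lay below the highest labelled knockout array, and the difference of -0.37 had an adjusted p of 0.158. On wild-type replicate 2 the ratio of the 3′ to the 5′ control probe set of Gapdh, which rises as RNA is degraded, was 2.19. That ratio was the highest of the 18 arrays, and its part in the genotype differences was not tested. Gstp1, the pi-class enzyme and the single positive value as deposited, differed by 0.01. Its arrays ran from 27252 to 30287 in wild type and from 28044 to 29909.9 in labelled knockout.

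Among the genes outside the transferases none was called at 4 weeks. Gss, glutathione synthetase, read 446, 392 and 450.0 in wild type and 607, 568 and 541 in labelled knockout. These groups did not overlap, but the difference of 0.40 (SE 0.12) had an adjusted p of 0.0766. Txnrd2, the mitochondrial thioredoxin reductase, read 407, 477 and 445 in wild type and 349, 305 and 321 in labelled knockout, again without overlap, with a difference of -0.43 (adjusted p = 0.0941). In all, 11 of the 34 genes had groups that did not overlap, 1 above and 10 below wild type, against 19.5% of all probe sets in either direction. Markers of other liver cells moved with this comparison. The 9 macrophage and Kupffer cell markers were all lower in labelled knockout, 3 of them called, and their summed signal was 3751 to 4086 against 5701 to 6196 in wild type. The 6 stellate cell and fibroblast markers summed to 2483 to 2656 against 3574 to 3908, with 1 called lower. The 3 measured exocrine pancreas markers summed to 713 to 776 against 383 to 505, with 1 of 2 tested called higher. The 4 lymphocyte markers summed to 186 to 223 against 249 to 280, with neither of the 2 tested called. The 8 hepatocyte markers had no call and summed to 224086 to 241715 against 210845 to 232186. No marker of these lists read 0, and their part in the differences of the glutathione genes was not tested. Sums of further lists also lay apart between genotypes. Genes higher in male liver (5 measured) summed to 39077 to 41843 in labelled knockout against 31769 to 34923 in wild type, with 2 called higher. Those higher in female liver (2 measured) summed to 36.257 to 57.819 against 19.405 to 35.996, with neither called. The 5 endothelial cell markers summed to 2375 to 2423 against 2500 to 2694, with none called. The part of these further lists was not tested either.

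**Figure D1:**
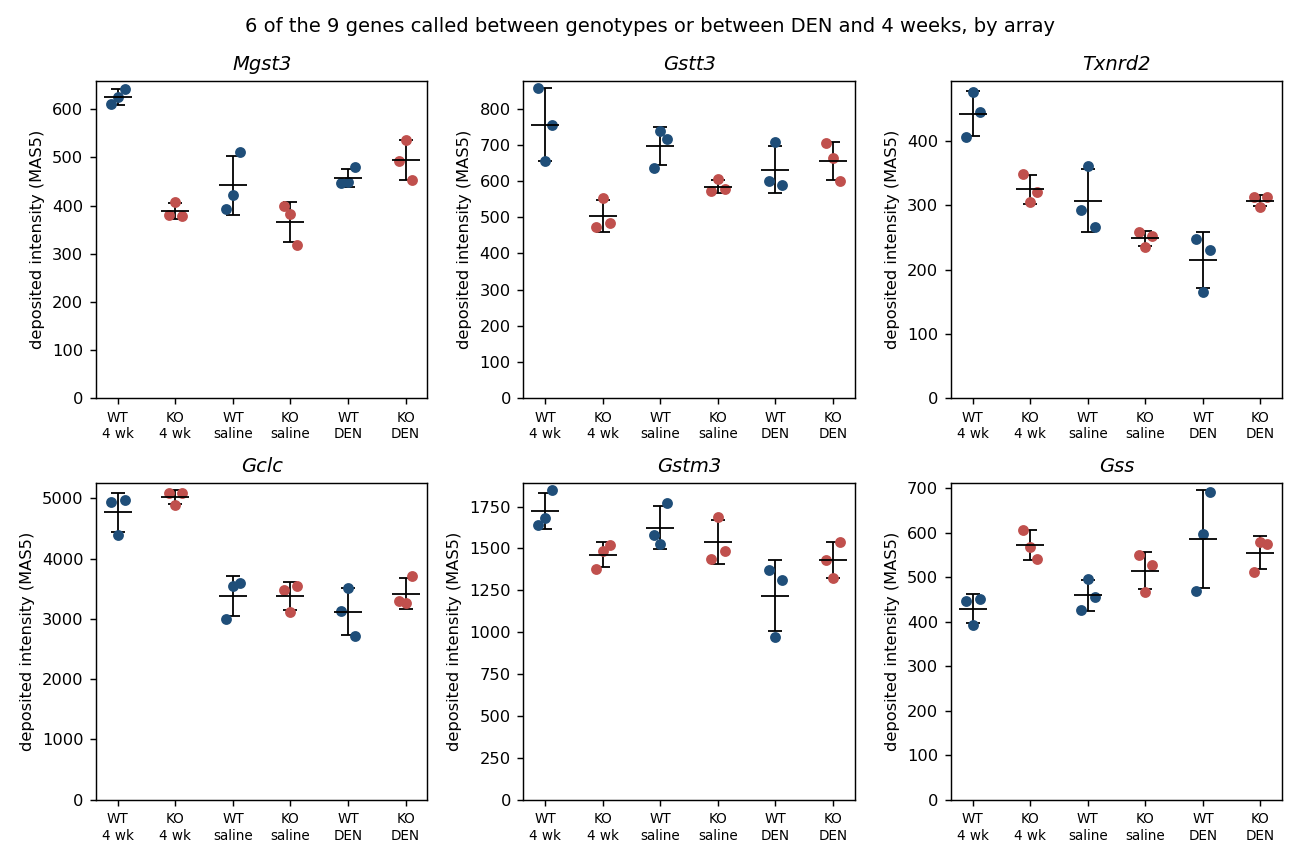
Deposited intensity (vertical axes, from 0) of 6 genes on each of the 18 arrays. Points are arrays (blue, wild type; red, labelled knockout), and the bar and whiskers are the mean ± SD of 3 arrays. Mgst3 and Gstt3 are lower in labelled knockout at 4 weeks, Gclc is high in both groups at 4 weeks, and Txnrd2 is lowest in wild type with DEN.

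The comparison of DEN-injected livers with the uninjected livers at 4 weeks differs in labelled weeks as well as in the injection, and the effects of age and of DEN cannot be told apart in it. In wild type 1 of the 34 genes rose and 4 fell, where 4.4% of all tested probe sets were called, 1.97% up and 2.44% down. Among the transferases, Gstm3, a mu-class enzyme (chromosome 3, 107963696 to 107969174), went from 1642, 1681 and 1849 at 4 weeks to 1370.4, 974 and 1312 with DEN. The groups did not overlap and the signal fell by 0.51 on the log2 scale (SE 0.11, adjusted p = 0.0114). The call was lost without 4-week replicate 3 and without DEN replicate 2, and a further Gstm3 probe set gave -0.35 (adjusted p = 0.256). Mgst3 went from 610.2, 625 and 642 to 446, 448 and 479. It fell by 0.44 without overlap (SE 0.11, adjusted p = 0.0218), and the call was lost in 3 of the 6 fits that leave out an array.

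The genes of glutathione synthesis moved in both directions in wild type. Gclc encodes the catalytic subunit of glutamate-cysteine ligase, the rate-limiting enzyme of glutathione synthesis (chromosome 9, 77754535 to 77794489). It read 4935, 4388 and 4979.5 at 4 weeks and 3133, 3508 and 2720.4 with DEN. All DEN arrays were below all 4-week arrays, a 1.53-fold lower signal (log2 difference -0.61, SE 0.10, adjusted p = 0.00100). Gclm, the modifier subunit of the same enzyme, read 2361, 2335 and 2502 at 4 weeks and 2248, 2494 and 2286 with DEN. The groups overlapped and the difference was -0.04. Gss rose from 446, 392 and 450.0 to 469.7, 597 and 691 (log2 difference 0.42, SE 0.12, adjusted p = 0.0419). The groups did not overlap, yet the call was lost in 5 of the 6 fits that leave out an array, and a further Gss probe set gave 0.04.

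Txnrd2, which keeps mitochondrial thioredoxin reduced (chromosome 16, 18426417 to 18479073), had the largest change of the 34 genes between these groups. It went from 407, 477 and 445 at 4 weeks to 248, 165 and 231 with DEN in wild type. The groups lay far apart, with a 2.01-fold lower signal (log2 difference -1.01, SE 0.13, adjusted p = 0.000203), and the call held with every array left out in turn. The 3 further Txnrd2 probe sets, with mean signals of 107 to 117, gave -0.28, -0.22 and 0.15 and none was called. Probe sets of this gene therefore differed in the size and, for 1 of them, in the direction of the change.

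In labelled knockout 4 of the 34 genes rose and 1 fell between 4 weeks and DEN, where 8.24% of all tested probe sets were called, 3.53% up and 4.71% down. The 4 that rose were all glutathione transferases of the group counted here as cytosolic. Gsta3 went from 7351, 8867 and 8214 at 4 weeks to 12435, 11785 and 10896 with DEN (log2 difference 0.52, SE 0.13, adjusted p = 0.0163). Gstz1, the zeta-class enzyme that also isomerizes maleylacetoacetate in tyrosine breakdown, went from 3029, 3311 and 3216 to 4741, 4469.8 and 4377 (0.51, SE 0.12, adjusted p = 0.0131). In both genes every DEN array was above every 4-week array. Gstt3 went from 472, 553 and 484 to 705, 663 and 601 (0.37, SE 0.11, adjusted p = 0.0325). Gstk1, the kappa-class enzyme of mitochondria and peroxisomes, went from 2241, 2277 and 2127 to 2816, 2962 and 2582 (0.33, SE 0.08, adjusted p = 0.0176). Neither of these overlapped between groups. Leaving out arrays in turn lost the call of Gsta3 and of Gstt3 in 4 of 6 fits, of Gstk1 in 3 and of Gstz1 in 1. Without labelled knockout replicate 1 at 4 weeks all 4 calls were lost (adjusted p = 0.0921, 0.133, 0.0577 and 0.0671 in that order), and Gclc was the 1 gene still called. Those of Gsta3, Gstt3 and Gstk1 were also lost without 4-week replicate 3 and without DEN replicate 2, and those of Gsta3 and Gstt3 without DEN replicate 1. The further Gsta3 probe set gave 0.09 (adjusted p = 0.666) in labelled knockout and was called lower in wild type (-0.60, adjusted p = 0.00225), so its differences were lower than those of the first probe set in both genotypes.

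Gclc was the gene that fell in both genotypes. In labelled knockout it read 5089, 4893 and 5094 at 4 weeks and 3291, 3257 and 3717 with DEN, without overlap (log2 difference -0.55, SE 0.10, adjusted p = 0.00183). Its further probe set was called lower as well, by 0.60 in labelled knockout and by 0.61 in wild type (adjusted p = 0.00103 and 0.000966). Saline arrays also read low, at 2998, 3541 and 3591 in wild type and 3479.7, 3107 and 3553 in labelled knockout. DEN minus saline was not called for Gclc in either genotype. Mgst3 differed by 0.33 in labelled knockout and missed the threshold (adjusted p = 0.0543), but passed it with quantile values (adjusted p = 0.0447). A further probe set of Gpx4, the peroxidase of membrane lipid hydroperoxides, rose by 0.41 (adjusted p = 0.00441), while its brighter probe set gave 0.15.

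Values that moved with these comparisons included markers of other cell types and a measure of RNA integrity. In labelled knockout 8 of the 9 macrophage and Kupffer cell markers rose from 4 weeks to DEN, their sum going from 3751 to 4086 at 4 weeks to 4891 to 7815 with DEN. In wild type none was called, with sums of 5701 to 6196 and 5114 to 7055. The 6 stellate cell and fibroblast markers went from 2483 to 2656 at 4 weeks to 2855 to 4101 with DEN in labelled knockout, where 2 were called higher. In wild type they went from 3574 to 3908 to 2884 to 3343, with none called. The lymphocyte sum went from 186 to 223 to 259.5 to 305 in labelled knockout, with neither tested marker called. The exocrine pancreas sum went from 383 to 505 to 561 to 749 in wild type, with 1 of 2 tested markers called higher. The ratio of the 3′ to the 5′ control probe set of Gapdh, which rises as RNA is degraded, was 1.13 to 2.19 at 4 weeks in wild type and 1.02 to 1.13 with DEN. In labelled knockout it was 1.35 to 1.70 at 4 weeks and 0.907 to 0.937 with DEN. Without the 4-week array of highest ratio in each genotype, the wild-type count was 3 (Gstm3, Gclc and Txnrd2). The labelled knockout count was then 4, with Gstt3 no longer called (adjusted p = 0.0834). For this fit the share of all probe sets called was not counted. The part of these measures in the changes of single genes was not tested further.

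**Figure D2:**
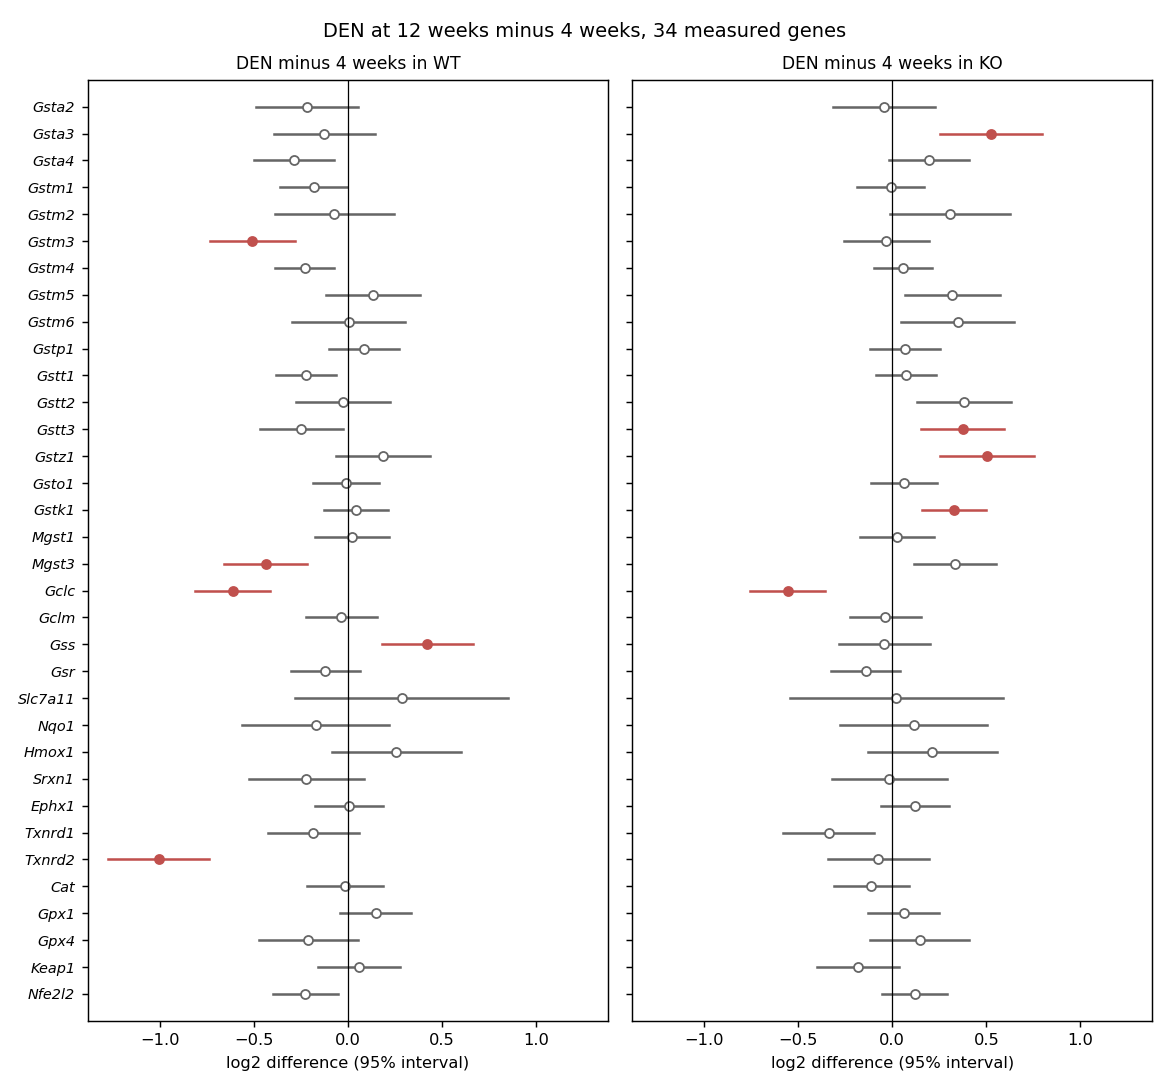
Log2 difference of DEN-injected minus uninjected 4-week livers (horizontal axes) for the 34 measured genes in wild type (left) and labelled knockout (right), ordered by role. Lines are 95% intervals from limma and filled red points are called. Gclc lies left of 0 in both panels, while Txnrd2, Mgst3 and Gstm3 are called in the wild-type panel.

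Whether the genotype difference changed between 4 weeks and DEN was tested directly, as the difference with DEN minus the difference at 4 weeks. Of the 34 genes 2 were called, both up, where 0.762% of all tested probe sets were called, 0.37% up and 0.392% down. For Mgst3, labelled knockout minus wild type was -0.67 at 4 weeks and 0.10 with DEN, where the arrays read 446, 448 and 479 in wild type and 493, 536 and 454 in labelled knockout. The change of 0.77 (SE 0.15) had an adjusted p of 0.0175, and of 0.0556 without labelled knockout replicate 3 at 4 weeks. For Txnrd2 the genotype difference was -0.43 at 4 weeks and 0.51 with DEN, where wild type read 248, 165 and 231 and labelled knockout 313, 297 and 313. The change of 0.93 (SE 0.18) had an adjusted p of 0.0189, and rose above 0.05 without labelled knockout replicate 2 or 3 at 4 weeks (to 0.0557 at most). Its 3 further probe sets gave 0.36, 0.61 and 0.21, none of them called.

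The cytosolic transferases pointed the same way in this test without a call. Of the 16, 15 had a positive change as deposited and with quantile values, and 16 with medians centred, with a median of 0.31. Over all tested probe sets 44.7% of the changes were positive as deposited, 49.4% with quantile values and 54.5% with medians centred. The median of all as deposited was -0.05. The largest was Gsta3, at 0.65 (adjusted p = 0.102), and its further probe set was called (0.69, adjusted p = 0.0296). The genes share the 4-week and DEN arrays of both genotypes, so these signs are not independent of those given for each comparison. The 9 macrophage markers also all changed upward in this test, 1 of them called. Of the 6 stellate cell and fibroblast markers 4 changed upward, 1 of them called. Their summed signal in labelled knockout and wild type was 2483 to 2656 and 3574 to 3908 at 4 weeks, and 2855 to 4101 and 2884 to 3343 with DEN. The part of these markers in the result was not tested.

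With DEN, none of the 34 genes was called between genotypes, where 0.0074% of all tested probe sets were called. At an unadjusted p under 0.05 there were 5 genes, against 8.97% of all probe sets. The smallest p belonged to Txnrd2, which was higher on each labelled knockout array than on each wild-type array (difference 0.51, SE 0.13, adjusted p = 0.262). Gstm3 followed at 0.24 (adjusted p = 0.534), reading 1370.4, 974 and 1312 in wild type and 1432, 1323 and 1537 in labelled knockout, with overlap. Gsta3 was next at 0.28 (adjusted p = 0.538), reading 11396, 8462 and 9169 in wild type and 12435, 11785 and 10896 in labelled knockout, also with overlap. Of the 16 cytosolic transferases 14 were positive as deposited and 15 with either other scaling, with a median of 0.12. Over all tested probe sets 46.2% were positive as deposited, 50.3% with quantile values and 57.3% with medians centred. The median of all as deposited was -0.02. With DEN the Gapdh ratio was 1.02 to 1.13 in wild type and 0.907 to 0.937 in labelled knockout, without overlap, and its part was not tested.

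With saline, again none of the 34 was called between genotypes, where 0.0111% of all tested probe sets were called. At an unadjusted p under 0.05 there were 6 genes, against 5.28% of all probe sets. The 3 smallest p-values were those of Mgst3, Gstt3 and Nfe2l2. Mgst3 read 392, 422 and 511 in wild type and 398, 382 and 318 in labelled knockout, with overlap (difference -0.26, adjusted p = 0.935). Gstt3 read 636, 739 and 715 in wild type and 572, 604 and 578 in labelled knockout, without overlap (difference -0.24, adjusted p = 0.941). The genotype difference with DEN minus that with saline gave no call among the 34 genes and none among all probe sets, and 7 genes against 8.03% of all probe sets at an unadjusted p under 0.05. The smallest p-values there belonged to Txnrd2 (0.78, adjusted p = 0.332), Nfe2l2 (0.37, adjusted p = 0.430) and Gsta4 (0.40, adjusted p = 0.477).

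**Figure D3:**
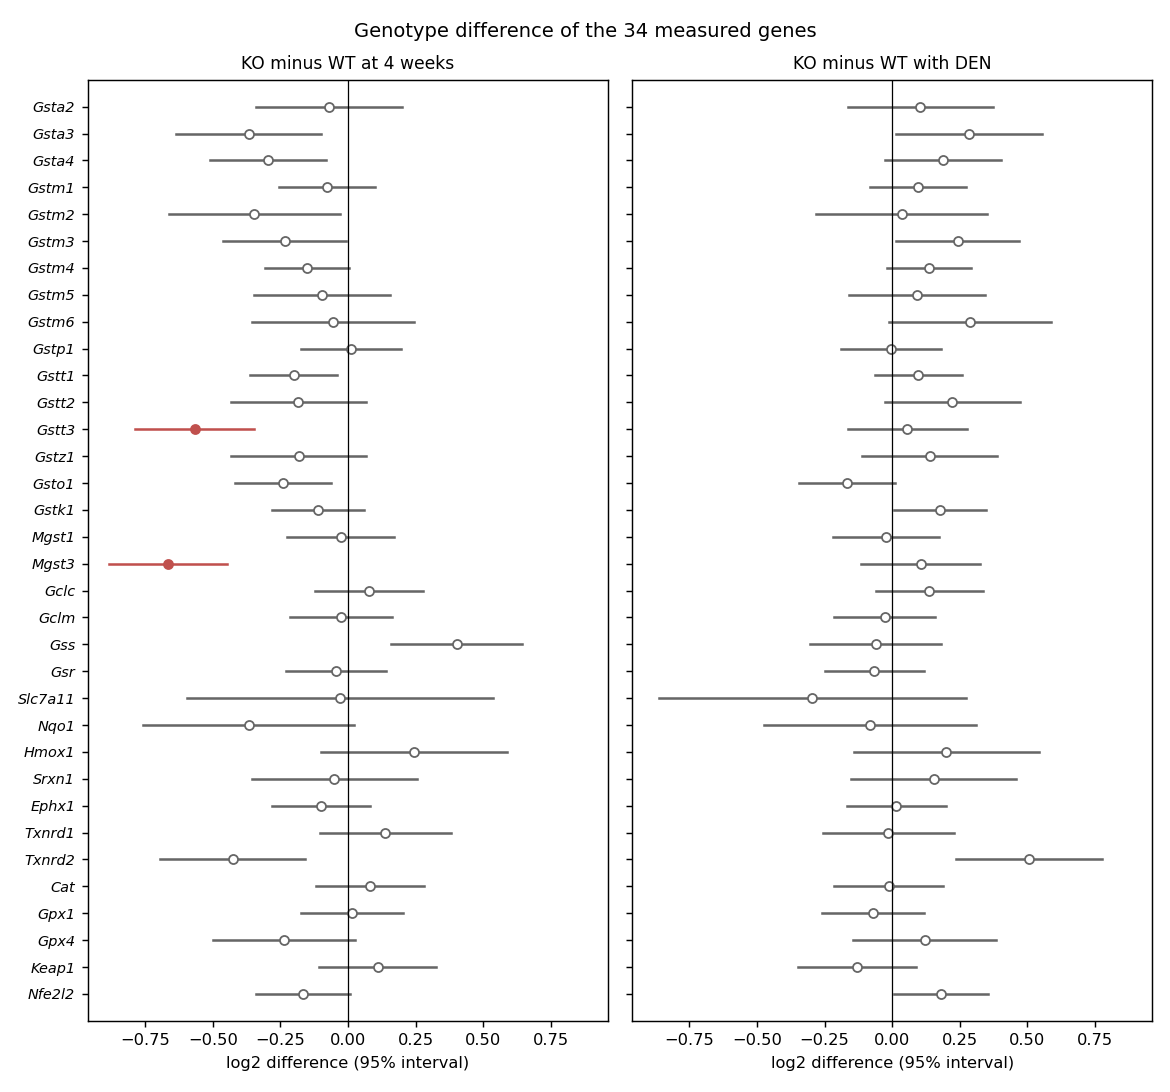
Log2 difference of labelled knockout minus wild type (horizontal axes) for the 34 measured genes at 4 weeks (left) and with DEN (right), ordered by role. Lines are 95% intervals from limma and filled red points are called. Mgst3 and Gstt3 are called at 4 weeks, most transferases lie left of 0 there, and no gene is called with DEN.

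Nfe2l2, Keap1, Nqo1, Hmox1 and Srxn1 were not called in any of the 11 comparisons. Nfe2l2 (chromosome 2, 75675513 to 75704663) read 1034, 1045 and 1054 in wild type and 959.5, 919 and 908 in labelled knockout at 4 weeks. With DEN it read 917, 892 and 859 in wild type and 995, 1051 and 985 in labelled knockout. The groups did not overlap in either comparison and the order of the genotypes was opposite, but the differences were small, at -0.17 (adjusted p = 0.363) and 0.18 (adjusted p = 0.540). The test of that reversal gave 0.35 (95% interval 0.10 to 0.59, adjusted p = 0.176). Keap1, the cysteine-rich sensor that holds NRF2, read 355, 294 and 351 in wild type and 353, 334 and 394 in labelled knockout at 4 weeks. With DEN it read 396, 330.2 and 318 in wild type and 331, 295 and 322 in labelled knockout. The groups overlapped at both, with differences of 0.11 (adjusted p = 0.685) and -0.13 (adjusted p = 0.760).

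Nqo1, the quinone reductase most used as a readout of NRF2 (chromosome 8, 107388225 to 107403205), was dim. It read 104, 94.4 and 112 in wild type and 110.3, 52.7 and 75.1 in labelled knockout at 4 weeks, and 116, 82.9 and 75.1 in wild type and 103, 80.4 and 71.8 in labelled knockout with DEN. The arrays of the groups overlapped throughout. DEN minus 4 weeks was -0.17 in wild type (95% interval -0.56 to 0.22) and 0.11 in labelled knockout (95% interval -0.28 to 0.50), and these intervals include changes of the size called for other genes. Hmox1, heme oxygenase 1, read 125, 76.0 and 108 in wild type at 4 weeks and 142, 103 and 130.2 with DEN, with overlap. Srxn1, which reactivates oxidized peroxiredoxins, read 229, 274 and 232 and then 233, 191 and 200.4, also with overlap. The 14 genes without a call in any comparison were Gsta2, Gstm2, Gstm4, Gstm5, Gstt2, Gclm, Gsr, Nqo1, Hmox1, Srxn1, Txnrd1, Slc7a11, Keap1 and Nfe2l2. Their differences over the 9 comparisons of 2 groups ran from -0.37 to 0.49. In the genotype difference with DEN minus that with saline, Slc7a11 had -0.74, also without a call.

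**Figure D4:**
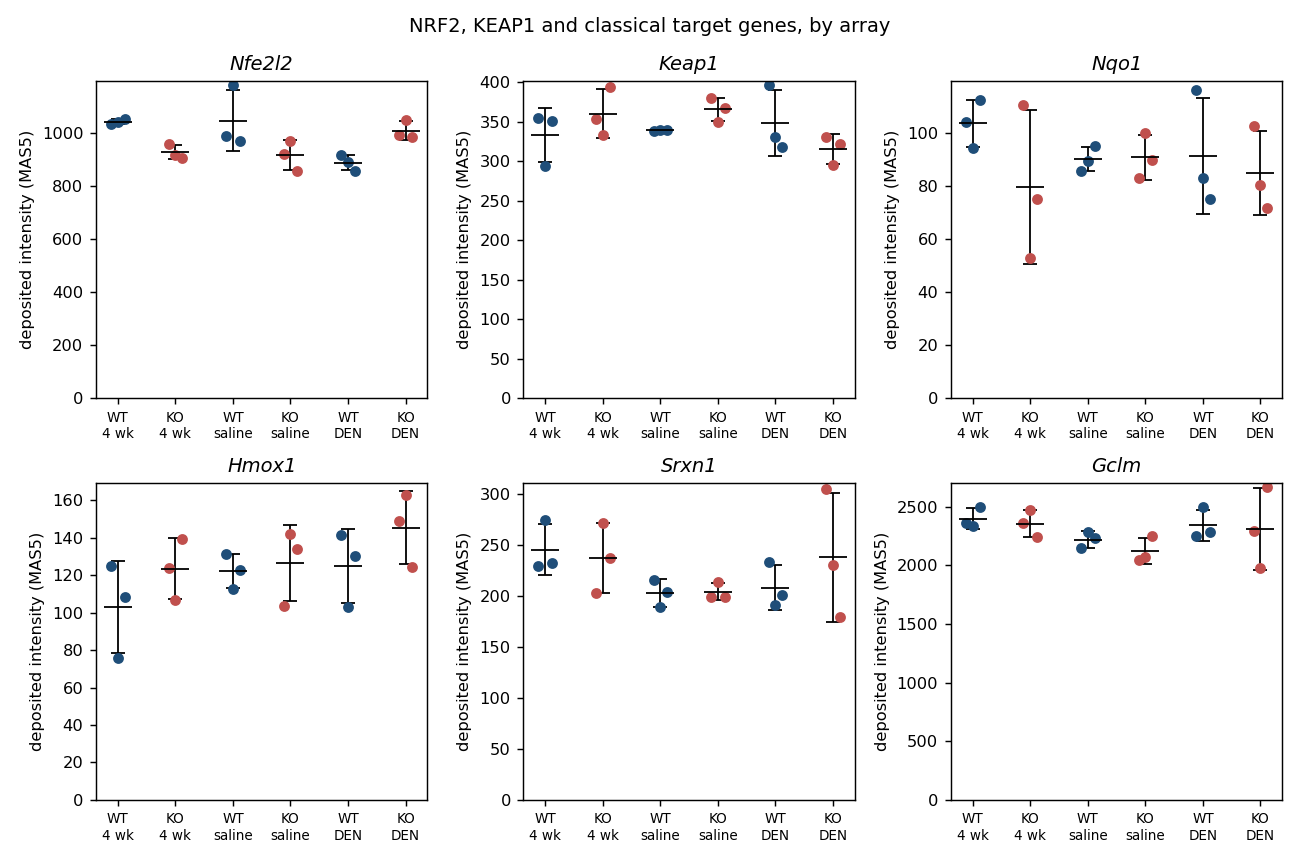
Deposited intensity (vertical axes, from 0) of Nfe2l2, Keap1 and 4 NRF2 target genes on each of the 18 arrays. Points are arrays (blue, wild type; red, labelled knockout), and the bar and whiskers are the mean ± SD of 3 arrays. None of the 6 genes was called in any comparison.

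The counts in comparisons with saline depended on the scaling. With the values as deposited, DEN minus saline gave 9 genes up and 2 down in wild type, where 6.54% of all probe sets were called, 3.4% up and 3.13% down. In labelled knockout it gave 14 up and 1 down, where 15.1% were called, 6.42% up and 8.65% down. With quantile values the counts were 1 up and 1 down (3.64% of all probe sets) and 7 up and 1 down (10.9%). The 8 genes with a mean intensity of at least 5000, a limit chosen after the values were seen, were Cat, Ephx1, Gpx1, Gpx4, Gsta3, Gstm1, Gstp1 and Mgst1. As deposited 7 of them rose in wild type and 8 in labelled knockout. Their median difference was 0.75 in wild type and 0.87 in labelled knockout as deposited, and 0.10 and 0.07 with quantile values. The median of the other 26 genes was -0.01 and 0.13 as deposited and 0.01 and 0.13 with quantile values. Gstp1 read 13740.5, 12644 and 16049.9 with saline and 30697, 33512 and 27398 with DEN in wild type. All saline arrays were far below all DEN arrays, a difference of 1.11 as deposited and 0.02 with quantile values. The brightest 5% of all tested probe sets shifted the same way, by a median of 0.27 in wild type and 0.35 in labelled knockout as deposited. With quantile values the median was 0.01 in each. Quantile normalization removes such a shift by construction, which also limits what the quantile values of the brightest genes can show. Saline injection and the different scale of its arrays cannot be told apart from these values. The Gapdh ratio was 1.19 to 1.33 with saline in wild type and 1.21 to 1.41 in labelled knockout, above the DEN arrays of the same genotype (1.02 to 1.13 and 0.907 to 0.937) without overlap. The same ratio of beta-actin, Actb, overlapped between saline and DEN arrays in both genotypes. It was 3.03 to 3.07 with saline and 2.89 to 3.37 with DEN in wild type. In labelled knockout it was 2.72 to 3.50 with saline and 2.82 to 3.05 with DEN. From saline to DEN in labelled knockout 3 of the 9 macrophage markers were called higher, with sums of 4397 to 5125 and 4891 to 7815, and 1 of the 6 stellate cell markers. In wild type none of either list was called. The part of these ratios and of these markers in the differences from saline was not tested.

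**Figure D5:**
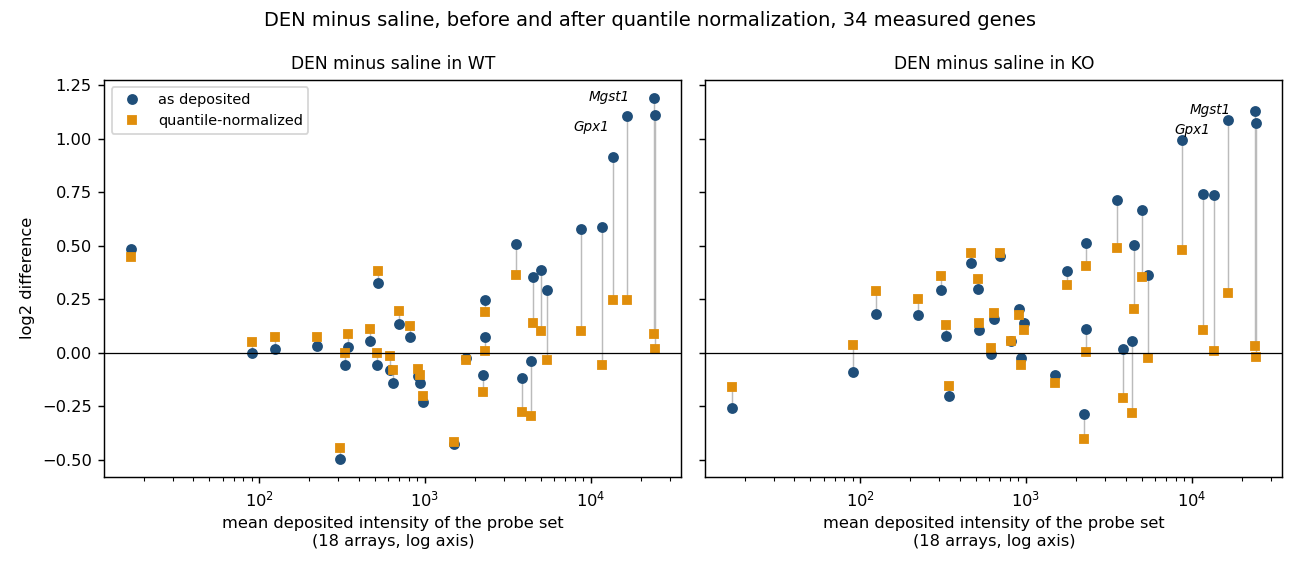
Log2 difference of DEN minus saline (vertical axes) against the mean deposited intensity of each of the 34 measured genes (horizontal log axis) in wild type (left) and labelled knockout (right). Blue points use deposited values, orange squares quantile-normalized values, and a line joins the pair of a gene. Bright genes such as Mgst1 and Gpx1 stand between 1.09 and 1.19 as deposited and between 0.03 and 0.28 after normalization.

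Only genes called with both scalings are named for these comparisons. In wild type DEN exceeded saline for Gpx1, the cytosolic glutathione peroxidase, which read 9719, 8987 and 11013 with saline and 20665, 23751 and 19521 with DEN. The groups lay apart, by 1.10 as deposited (SE 0.09, adjusted p = 4.58e-08) and by 0.25 with quantile values (adjusted p = 0.0295). Gstm3 fell from 1580.1, 1525 and 1770.0 with saline to 1370.4, 974 and 1312 with DEN, by 0.42 with either scaling (adjusted p = 0.0196 and 0.0286). Its call as deposited was lost in 3 of the 6 fits that leave out an array (DEN replicate 2, saline replicate 1 or 3). A further Gstm3 probe set had the opposite sign, at 0.36.

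In labelled knockout 7 genes were above saline with both scalings. Gsta3 read 5539, 6546 and 5554 with saline and 12435, 11785 and 10896 with DEN, a difference of 0.99 as deposited (SE 0.13, adjusted p = 1.58e-05) and 0.48 with quantile values (adjusted p = 0.0104). Gstz1 read 2748, 2882 and 2631 with saline and 4741, 4469.8 and 4377 with DEN, a difference of 0.71 (SE 0.12) and 0.49 (quantile adjusted p = 0.00577). Gstk1 read 1883, 1995 and 1951 and then 2816, 2962 and 2582, a difference of 0.51 (SE 0.08) and 0.40 (quantile adjusted p = 0.000987). None of these 3 overlapped between groups. Gpx1, Gstt1, Gstm6 and Mgst3 were the others, with differences of 0.28, 0.20, 0.47 and 0.47 in quantile values. The call of Gstm6 as deposited was lost in each of the 6 fits that leave out an array, and that of Mgst3 in 1 (saline replicate 3). Gsto1, an omega-class enzyme, read 2524, 2605 and 2312 with saline and 1898, 2215 and 1989 with DEN. It fell by 0.29 as deposited (adjusted p = 0.0265) and by 0.40 with quantile values (adjusted p = 0.00258), while its further probe set gave 0.21. Its call as deposited was lost in 4 of the 6 fits, which leave out DEN replicate 1 or 3 or saline replicate 1 or 2.

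Saline minus 4 weeks gave 12 genes down in wild type, where 8.26% of all probe sets were called, 4.22% up and 4.04% down. In labelled knockout it gave 1 up and 9 down, where 9.94% were called, 5.09% up and 4.84% down. With quantile values 4 fell in wild type (5.27%), and 1 rose and 2 fell in labelled knockout (7.2%). In wild type the 4 were Gstt1, at -0.32, Mgst3, at -0.53, Txnrd2, at -0.56, and catalase, Cat, at -0.25, each in quantile values (adjusted p = 0.00415, 0.00591, 0.013 and 0.0381). Mgst3 went from 610.2, 625 and 642 at 4 weeks to 392, 422 and 511 with saline, and Txnrd2 from 407, 477 and 445 to 292, 362 and 267. Neither overlapped, so both genes were lower than at 4 weeks with saline as well as with DEN. The call of Txnrd2 as deposited was lost in 3 of the 6 fits (4-week replicate 2, saline replicate 1 or 3). In labelled knockout Gclc, at -0.35, and Gpx1, at -0.26, fell and Gsto1, at 0.43, rose in quantile values (adjusted p = 0.0358, 0.0144 and 0.00199). The call of Gsto1 as deposited was lost in 2 of the 6 fits (4-week replicate 1 or saline replicate 2).

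Other genes of the same pathways were read from 4 lists. At 4 weeks, of 18 tested further NRF2 targets 1 rose and 4 fell in labelled knockout, against 1.27% of all tested probe sets up and 0.992% down. Osgin1, an oxidative stress-induced growth inhibitor, rose by 0.92 (SE 0.18, adjusted p = 0.0081). Blvrb, biliverdin reductase B, fell by 0.38 (adjusted p = 0.00375), and Cbr1, carbonyl reductase, named in addition after its values were seen, by 0.41 (adjusted p = 0.0289). The pentose phosphate enzymes Tkt and Pgd, which serve NADPH supply, each fell by 0.54 (adjusted p = 0.004 and 0.00453). No call was made among 8 NRF2 partners and regulators, 20 further glutathione genes and 15 further peroxide and thioredoxin genes.

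From 4 weeks to DEN in wild type 5 of the 18 further NRF2 targets fell and none rose, against 2.44% of all probe sets down and 1.97% up. Of the 20 glutathione genes 2 rose and 1 fell, of the 15 peroxide and thioredoxin genes 1 rose, and none of the 8 partners was called. Pgd fell by 0.78 (adjusted p = 0.000203), Tkt by 0.61 (adjusted p = 0.00125), Ugdh, which makes UDP-glucuronate, by 0.35 (adjusted p = 0.0199), and Cbr1 by 0.41 (adjusted p = 0.0219). In the glutathione list Cbs, the first enzyme of transsulfuration, fell by 0.29 (adjusted p = 0.0367), and Chac1, which degrades glutathione, rose by 0.68 (adjusted p = 0.044). Mgst2, another MAPEG transferase, rose by 1.16 (adjusted p = 0.0444) but was not called with quantile values (adjusted p = 0.0577). Msrb1, a methionine sulfoxide reductase, rose by 0.42 (adjusted p = 0.00745) in the peroxide and thioredoxin list. In labelled knockout 1 NRF2 target rose and 2 fell, 1 glutathione gene fell, 2 peroxide and thioredoxin genes rose and 1 partner fell, against 3.53% of all probe sets up and 4.71% down. Osgin1 fell by 0.80 (adjusted p = 0.0103), Pgd by 0.37 (adjusted p = 0.0242), Cbs by 0.50 (adjusted p = 0.000994) and Mafg, a small MAF partner of NRF2, by 0.52 (adjusted p = 0.0259). Blvrb, at 0.33 (adjusted p = 0.00667), and the peroxiredoxins Prdx2 and Prdx4, each at 0.34 (adjusted p = 0.0235 and 0.0303), rose. Blvrb was thus lower in labelled knockout at 4 weeks and rose there with DEN, and the change of its genotype difference was 0.58 (SE 0.10, adjusted p = 0.00934), a test in which 0.762% of all probe sets were called. That of Cbr1 was 0.60 (SE 0.14, adjusted p = 0.0447), and it missed the threshold with quantile values (adjusted p = 0.0611).

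In the comparisons with saline the further genes called with both scalings were few. All probe sets called with quantile values made up 3.64% and 10.9% for DEN minus saline in wild type and labelled knockout, and 5.27% and 7.2% for saline minus 4 weeks. DEN minus saline gave 1 up in wild type and 2 up and 1 down in labelled knockout among the 15 peroxide and thioredoxin genes, and 3 up in labelled knockout among the 20 glutathione genes. The last were Glrx5, Lap3 and Glrx, at 0.23, 0.31 and 0.38 in quantile values (adjusted p = 0.0202, 0.0315 and 0.0155). Msrb1 rose in both genotypes, by 0.32 and 0.33 (quantile adjusted p = 0.0169 and 0.00635). Of the 18 NRF2 targets, DEN minus saline in wild type gave Txn1 up and Pgd and Abcc2 down, and in labelled knockout Txn1, Cbr1 and Blvrb up and Abcc2 down. Txn1, cytosolic thioredoxin, rose by 0.31 in wild type and 0.43 in labelled knockout in quantile values (adjusted p = 0.0216 and 0.000879). Abcc2, the canalicular exporter of glutathione conjugates, fell by 0.46 and 0.78 (quantile adjusted p = 0.0419 and 0.000394). From 4 weeks to saline 2 NRF2 targets fell in each genotype (Cbr1 and Blvrb in wild type, Cbr1 and Txn1 in labelled knockout), and Sqstm1, an adaptor that binds KEAP1, fell by 0.29 in labelled knockout in quantile values (adjusted p = 0.00898). Cbs fell in both genotypes, by 0.50 in wild type and 0.64 in labelled knockout in quantile values (adjusted p = 0.000327 and 1.56e-05). In labelled knockout Glrx2, a mitochondrial glutaredoxin, rose by 0.37 and Nnt, the mitochondrial NADPH-forming transhydrogenase, by 0.77, while Txn2, mitochondrial thioredoxin, fell by 0.42 in quantile values (adjusted p = 0.026, 0.0189 and 0.0331). None of the 4 lists held a call between genotypes with DEN or with saline. At an unadjusted p under 0.05 there were 1 NRF2 target, 3 glutathione genes and 2 peroxide or thioredoxin genes with DEN, against 8.97% of all probe sets. With saline there were 3, 1 and 1, against 5.28%, and none of the 8 partners in either comparison.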

How the data were processed

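Total RNA of frozen mouse liver was labelled with biotin and hybridised to 1-colour arrays. Per the submitters' processing notes the deposited intensity values were made with MAS5, its version not given in the sources used here. They are linear, and every array's trimmed mean is 150.00, so the authors' scaling equalised a mean and not the distribution. Of 45101 probe sets, 64 controls were left out, and of the remaining 45037 the platform annotation gives 34945 to 1 gene, 932 to several and 9160 to none. Here 16 was added, log2 taken, and probe sets below the 40th percentile of mean log2 removed, which left 27022. One limma fit (version 3.58.1, R 4.3.3; intensity trend, a coefficient per group, 12 residual degrees of freedom) gave two-sided p-values with Benjamini-Hochberg adjustment over all of them, called under 0.05; folds are on the log2(value + 16) scale. The same steps were tested on simulated data. Arrays of the same replicate number in different groups did not deviate together (correlations -0.098 to 0.116 over 45 pairs, 2 of them above 0.1), so the numbers were not used as pairs. No column of values lacked a sample (0). The genes, lists and tests were chosen with earlier results of these data known. Named in full are genes called between genotypes, between DEN and 4 weeks or in their difference, genes called with both scalings where saline enters, otherwise the 3 smallest p-values, and always Nfe2l2, Keap1 and Nqo1; of further lists, up to 4 called genes per comparison. The alternatives were quantile normalization, centred medians, other added constants, no filter, no trend, a replicate block, other probe sets, the compared groups alone, and leaving out arrays. The number of arrays limits the precision.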

Additional observations from a re-analysis of the deposited data

Results flagged for a closer look

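For 4 genes the difference between labelled genotypes itself differed between livers with DEN and uninjected livers at 4 weeks, by limma's test of that change. The change was 0.77 for Mgst3 (adjusted p = 0.0175), a microsomal glutathione transferase, and 0.93 for Txnrd2 (adjusted p = 0.0189), the mitochondrial thioredoxin reductase. It was 0.58 for Blvrb (adjusted p = 0.00934), biliverdin reductase B, and 0.60 for Cbr1 (adjusted p = 0.0447), carbonyl reductase. In each the labelled knockout was lower than wild type at 4 weeks, which for Txnrd2 was not called. These were 2 of the 34 genes and 2 of the 18 further NRF2 targets, where 0.762% of all tested probe sets were called. Leaving out arrays in turn lost the call of Mgst3 in 1 of 12 fits and of Txnrd2 in 2. The further probe sets of Txnrd2 were not called, and Cbr1 missed the threshold with quantile values.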

How the results depend on the processing

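Of the 14 called values that involve no saline array, 126 of 154 alternatives kept direction and call, 28 kept the direction without the call, and 0 reversed. The fits that leave out 1 array in turn are not among these 154. For DEN minus 4 weeks in wild type those fits lost the call of Gss in 5 of 6 and that of Txnrd2 in 0 of 6. With quantile values the number of the 34 genes called was 2 for DEN minus saline in wild type and 8 in labelled knockout, and 4 and 3 for saline minus 4 weeks. Of all probe sets 3.64%, 10.9%, 5.27% and 7.2% were called there, in the same order. With centred medians 3 were called for DEN minus 4 weeks in labelled knockout. Without an intensity trend it was 2 for DEN minus 4 weeks in wild type, 1 in labelled knockout, 7 for DEN minus saline in wild type and 0 for the change of the genotype difference from 4 weeks to DEN. With the compared groups alone it was 2 for DEN minus 4 weeks in wild type and 1 for that change. Without the 6 saline arrays it was 3 for DEN minus 4 weeks in labelled knockout and 1 for that change. Without the 4-week arrays of highest Gapdh ratio, 3 genes were called for DEN minus 4 weeks in wild type. The last 3 settings also use fewer arrays, and the cause of these moves was not tested. Shares of all probe sets called were counted for deposited and quantile values alone. In the other settings a move of a count may therefore not be particular to these genes. The replicate block moved no count by over 1.5 times and lost 3 of 62 called values. Under the block the genotype counts were 2 at 4 weeks, 0 with saline and 0 with DEN.

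Leaving out arrays in turn gave 2 to 4 calls between genotypes at 4 weeks, 0 to 0 with saline and 0 to 0 with DEN. It gave 2 to 6 for DEN minus 4 weeks in wild type and 1 to 7 in labelled knockout, 7 to 12 and 12 to 14 for DEN minus saline, and 10 to 13 and 8 to 9 for saline minus 4 weeks. The change of the genotype difference gave 0 to 5 against 4 weeks and 0 to 0 against saline. For these fits the share of all probe sets called was not counted. Among called values, with quantile values the sign turned for DEN minus saline of Gstm1 (-0.056) and Ephx1 (-0.035) in wild type and of Gstp1 (-0.020) and Ephx1 (-0.023) in labelled knockout. It turned for saline minus 4 weeks of Gstp1 (0.039) and Ephx1 (0.049) in wild type and of Gstp1 (0.071) in labelled knockout. Without probe sets whose names end in _x_at or _s_at it turned for Gstm3 in DEN minus saline in wild type (0.36), and in labelled knockout for Gsto1 in DEN minus saline (0.21) and saline minus 4 weeks (-0.054). Dim genes such as Nqo1 and Slc7a11 have wide intervals, and no call there is no sign of equality.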
